A study of Mus musculus with 8 samples.

Results

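The transcripts described here encode 10 proteins that neutrophils store in their granules or hold in their cytosol: Elane, Prtn3, Mpo, Ltf, Ngp, Camp, Lcn2, Mmp8, S100a8 and S100a9. They are 10 of the 18193 genes that could be read from the signal table, and all 10 are among the 13221 genes whose mean signal passed the filter on low values. Each has 1 probe set, and those of S100a8 and Lcn2 carry the suffixes _s_at and _a_at, which mark probe sets that can match several transcripts. The genes were chosen by their measured difference between genotypes, because Prtn3 and Camp stood among the larger differences in the basal cochlea, and by the known function of their products. All differences between genotypes below are therefore a description of these samples. Where a fit over all genes is given for them, it is not a test of these genes.

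The samples were organ of Corti, the cochlear epithelium that holds the hair cells, taken from mice at postnatal day 16, with the segments of both ears of a mouse combined. The 4 groups, with 2 samples each, were basal cKO, basal control, apical cKO and apical control. Conditional knockout (cKO) mice were Atoh1-Cre;Dicer1(flox/flox), and their littermate controls were Atoh1-Cre;Dicer1(flox/wt), so that controls also carried the Cre transgene and 1 floxed allele. Dicer1 makes mature microRNAs, and the Atoh1-driven Cre acts mainly in hair cells, so neutrophils are not the cells in which deletion was directed. Apical and basal samples of the same genotype and replicate number were taken to come from 1 mouse, which gives 4 presumed mice.

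Neutrophils fill their granules in sequence while they mature in the bone marrow. Primary granule proteins are transcribed at the promyelocyte stage, secondary granule proteins in the myelocytes and metamyelocytes that follow, and most of these genes are silent again in the circulating cell, which keeps the proteins. Transcripts of the early genes thus mark precursors, while S100a8 and S100a9 are also transcribed in mature neutrophils and in monocytes.

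The early genes are Elane and Prtn3, which encode the serine proteases neutrophil elastase and proteinase 3, and Mpo, which encodes the myeloperoxidase that makes hypochlorous acid. Elane and Prtn3 are neighbours on chromosome 10, 3.14 kb apart. Of the late genes, Ltf (lactoferrin, which binds iron), Ngp (a cathelicidin-related granule protein) and Camp (the cathelicidin antimicrobial peptide) lie on chromosome 9, with 570 kb between Camp and Ngp and 596 kb between Ngp and Ltf. Mmp8, the neutrophil collagenase, lies on chromosome 9 too, Lcn2, which binds bacterial siderophores, on chromosome 2, and S100a8 and S100a9, the subunits of calprotectin, on chromosome 3, 22.6 kb apart.

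RefSeq promoter sequences (GRCm38.p6) were found for 10 of 10 genes, and the 250 bases before each gene's start were read for 5 short motifs on both strands. The motifs were chosen after the sequences had been read. GAGGAAGT, a form of the site of PU.1 and other ETS factors, which drive early myeloid genes, stood in 5 promoters, 3 of 3 early and 2 of 7 late, against 2.44% of 32851 promoters of the same length. These 5 are printed to show where the motif falls, 5′ to 3′ on the gene's strand, with the motif in capitals (its reverse complement where it lies on the other strand).
Elane (chr10:79886062-79886311, + strand): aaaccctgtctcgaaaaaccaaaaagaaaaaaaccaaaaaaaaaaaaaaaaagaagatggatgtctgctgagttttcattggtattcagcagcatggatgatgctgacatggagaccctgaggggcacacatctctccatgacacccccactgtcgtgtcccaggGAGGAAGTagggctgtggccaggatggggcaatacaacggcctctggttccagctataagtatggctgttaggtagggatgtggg
Prtn3 (chr10:79879417-79879666, + strand): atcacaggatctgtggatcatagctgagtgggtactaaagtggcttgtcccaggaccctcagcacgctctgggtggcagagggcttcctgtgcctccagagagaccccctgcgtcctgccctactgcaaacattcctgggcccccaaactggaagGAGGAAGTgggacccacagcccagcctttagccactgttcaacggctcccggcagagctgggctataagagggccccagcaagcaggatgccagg
Mpo (chr11:87793534-87793783, + strand): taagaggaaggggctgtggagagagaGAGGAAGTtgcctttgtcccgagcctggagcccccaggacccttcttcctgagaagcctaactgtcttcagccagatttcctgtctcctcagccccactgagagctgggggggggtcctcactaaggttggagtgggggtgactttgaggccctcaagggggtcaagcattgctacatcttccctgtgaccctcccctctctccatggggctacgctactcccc
Mmp8 (chr9:7558179-7558428, + strand): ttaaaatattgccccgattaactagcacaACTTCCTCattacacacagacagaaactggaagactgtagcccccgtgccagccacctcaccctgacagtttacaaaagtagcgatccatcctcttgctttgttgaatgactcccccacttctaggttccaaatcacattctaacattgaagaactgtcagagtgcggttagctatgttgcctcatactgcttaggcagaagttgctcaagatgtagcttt
S100a8 (chr3:90668821-90669070, + strand): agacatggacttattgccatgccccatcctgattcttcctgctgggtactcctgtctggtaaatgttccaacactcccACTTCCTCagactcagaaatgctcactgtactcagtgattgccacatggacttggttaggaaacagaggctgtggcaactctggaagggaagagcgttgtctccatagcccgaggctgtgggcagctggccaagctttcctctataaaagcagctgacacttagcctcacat

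In Elane and Prtn3 the motif began 85 and 95 bases before the start, and AACGG, the core of the MYB site, followed in both. AACGG was in those 2 of the 10 promoters and in 14.5% of all promoters. TTNNGNAA, a loose form of the site of C/EBP factors, which drive granule genes, stood in 6 of 7 late promoters, all but that of Camp, and in 0 of 3 early ones, against 36.8% of all promoters. TGTGGT, the core of the RUNX site, was found for S100a9 alone (14% of all promoters) and TATAAA for S100a8 alone (12.4%). A match describes letters in this window and is not evidence of binding.

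The whole series held points that touch these genes. Median signals ran from 67.3 to 100.4 per array. The 2 basal controls were less alike than the replicates of the other groups, with r = 0.9279 across genes against 0.9615 to 0.9779. With the 6 samples of other groups, r was 0.9529 to 0.968 for control base replicate 1 and 0.9254 to 0.972 for control base replicate 2. Dct, a pigment cell gene of the stria vascularis, had signals of 15408 and 12812 in the basal cKO samples, against 62.2 and 15094 in the basal control samples. Xist, transcribed from the inactive X chromosome of females, had signals of 5365 and 5968 in the base and apex of control mouse 1, and of 77.7 to 300.5 in the other 6 samples, so the presumed control mice differed in sex and 1 of them differed from both cKO mice. Whether sex bears on the granule genes was not tested. Dicer1 had signals of 632 and 534 in cKO base, against 659 and 525 in control base, and of 680 and 575 in cKO apex, against 759 and 584 in control apex; where its probes lie relative to the floxed part is not known, so this does not check recombination. Hair cell markers had summed signals of 4075 to 6781 over the 6 genes with a probe set. Most of the sum came from Myo6, with 3605 of the 4075 in cKO base replicate 1. These are bulk samples, in which more cells of a type and more RNA per cell cannot be told apart.

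In the base, both cKO samples lay above both control samples for all 10 granule genes, early and late. In the apex this was so for 4, the 3 early genes and Ltf, and the other late genes overlapped between genotypes. Among all genes tested, 13.1% had both basal cKO samples above both basal controls, and 15% in the apex. Since the genotype values chose the genes, nothing is read from that comparison.

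Prtn3 had basal signals of 325 and 211 in cKO, against 74.0 and 97.6 in control, and apical signals of 126 and 207 in cKO, against 75.6 and 91.3 in control. The lowest cKO sample lay above the highest control sample over both regions. On the log2 scale cKO minus control was 1.62 ± 0.36 (SE) in the base, a 3.08-fold difference, and 0.96 ± 0.36 in the apex. Mpo had basal signals of 480.2 and 424 in cKO, against 49.9 and 213 in control, and apical signals of 158 and 208 in cKO, against 96.5 and 91.7 in control. Its basal controls differed more from each other than any other pair of Mpo replicates, and control base replicate 2 exceeded both apical cKO samples. The differences were 2.13 ± 0.59 in the base, 4.38-fold, and 0.95 ± 0.59 in the apex.

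Elane had basal signals of 142 and 95.03 in cKO, against 25.02 and 32.9 in control, and apical signals of 65.7 and 95.4 in cKO, against 8.88 and 38.0 in control. All 4 control values lay under 38.7, the signal at the filter, and all 4 cKO values above it, so Elane passed the filter through its cKO samples. With control values raised to that signal, the mean log2 signals of Elane stood for a 3.003-fold higher level in cKO base and 2.05-fold in cKO apex. That signal is the 40th percentile of mean signals and not a detection limit. The folds are thus not lower bounds.

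Of the secondary granule genes, Camp had basal signals of 1095 and 805 in cKO, against 316 and 475 in control, and apical signals of 443 and 408 in cKO, against 328 and 471 in control. The basal cKO samples stood alone, and the other 6 samples overlapped. The difference was 1.28 ± 0.29 (log2, SE) in the base and 0.11 ± 0.29 in the apex. Ngp had basal signals of 2406 and 2229 in cKO, against 798 and 1351 in control, and apical signals of 1426 and 1366 in cKO, against 974 and 1373 in control. Ltf had basal signals of 489 and 585 in cKO, against 244 and 325 in control, and apical signals of 388 and 440.4 in cKO, against 339 and 369 in control. Both genes were highest in the basal cKO samples and lowest in control base replicate 1. Their differences were 1.16 ± 0.28 for Ngp and 0.93 ± 0.22 for Ltf in the base, and 0.27 ± 0.28 and 0.22 ± 0.22 in the apex.

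Lcn2 and Mmp8 had wide spreads between replicates. Lcn2 had basal signals of 311 and 602 in cKO, against 114 and 307 in control, and apical signals of 238 and 166 in cKO, against 171 and 345 in control. Mmp8 had basal signals of 82.5 and 169 in cKO, against 51.6 and 67.5 in control, and apical signals of 66.2 and 81.6 in cKO, against 55.6 and 100.3 in control. For both genes the highest value was that of cKO base replicate 2, and control apex replicate 2 exceeded cKO base replicate 1. The basal differences were 1.21 ± 0.57 and 1.00 ± 0.46 (log2, SE) for Lcn2 and Mmp8, and the apical ones -0.29 ± 0.57 and -0.02 ± 0.46.

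S100a8 had basal signals of 2445 and 2883 in cKO, against 768 and 1278 in control, and apical signals of 1645 and 1192 in cKO, against 924 and 1716 in control. Its partner S100a9 had basal signals of 543 and 868 in cKO, against 207 and 414 in control, and apical signals of 462 and 399 in cKO, against 281 and 595 in control. In both subunits the apical genotypes overlapped, with control apex replicate 2 above both apical cKO samples. Basal differences were 1.42 ± 0.36 for S100a8 and 1.23 ± 0.46 for S100a9, and apical differences 0.15 ± 0.36 and 0.07 ± 0.46.

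**Figure D1:**
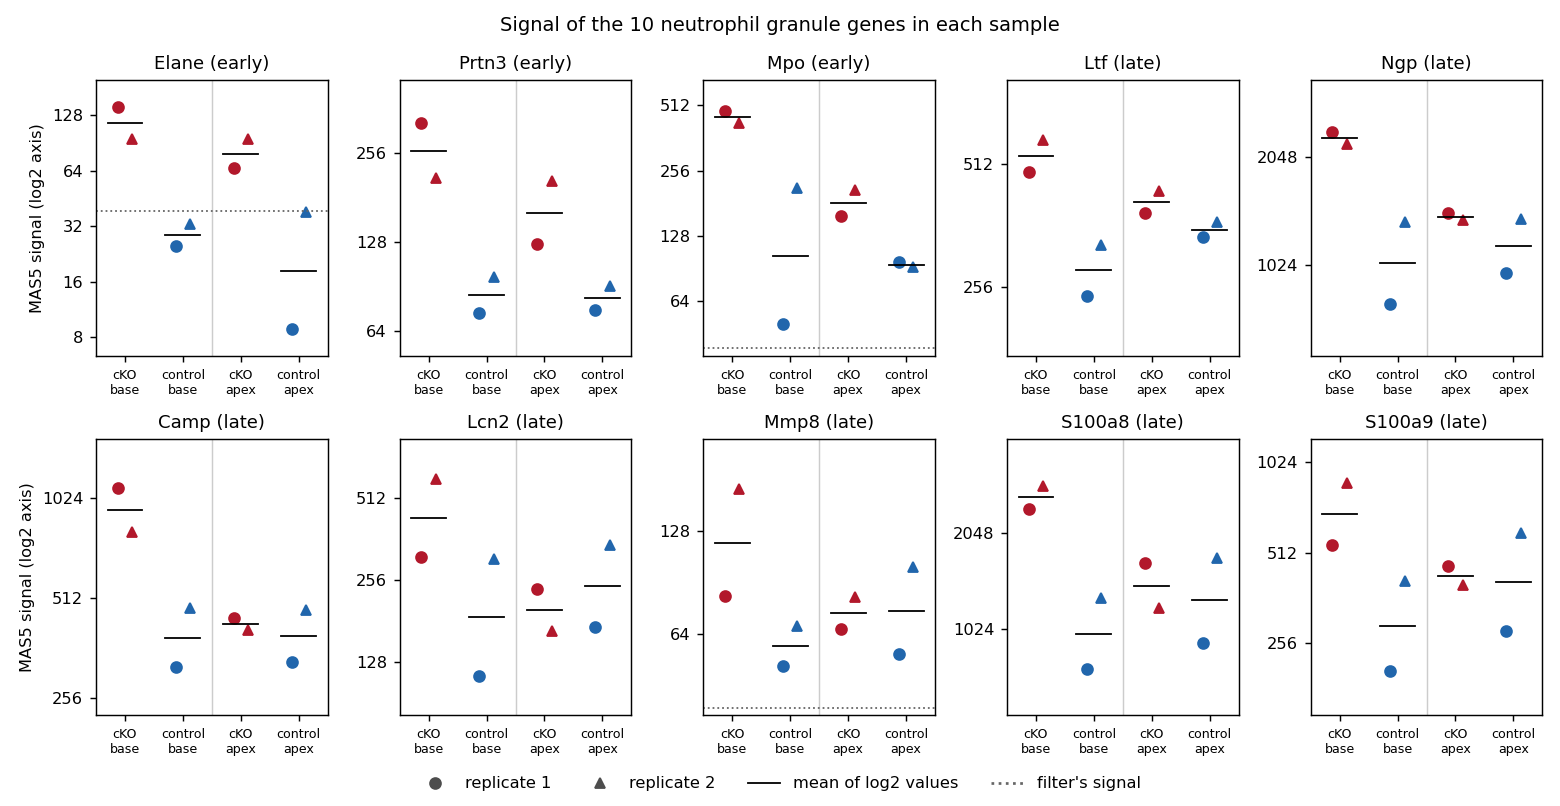
MAS5 signal (log2 axis) of each of the 10 granule genes in the 8 samples, cKO left of control within base and apex; points are samples, the bar is the mean of the 2 log2 values, and the dotted line is the signal at the filter (38.7). Both basal cKO samples lie above both basal controls in every panel, and the apical groups are apart for Elane, Prtn3, Mpo and Ltf.

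Over the groups of genes, the median basal difference was 2.02 (log2) for the 3 early and 1.21 for the 7 late genes, beside -0.00 over all genes tested. The early median is the fitted value of Elane, whose basal controls lay under the filter's signal, and with low values raised to that signal it was 1.62. In the apex the medians were 0.96 for the early and 0.11 for the late genes, beside 0.00 over all genes. The apical median of the late genes turned on single controls: it was -0.29, with 5 of 10 genes higher in cKO, without control apex replicate 1, and 0.40, with 10 of 10 higher, without control apex replicate 2. The basal medians were 1.42 for early and 0.78 for late genes without control base replicate 1, and 2.22 and 1.57 without control base replicate 2, with 10 of 10 genes higher in cKO either way.

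By limma across all genes, 0 of 10 granule genes passed an adjusted p of 0.05 between genotypes in the base, the apex or the per-mouse mean, where 0% of all genes passed in each. At an unadjusted p under 0.05 there were 413 of all genes in the base, 290 in the apex and 319 in the per-mouse mean. These counts give the background, and nothing is read from them about genes chosen by the same values. The basal difference of Mpo rested on its controls: it was 1.08 (log2) without control base replicate 1 and 3.18 without control base replicate 2.

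**Figure D2:**
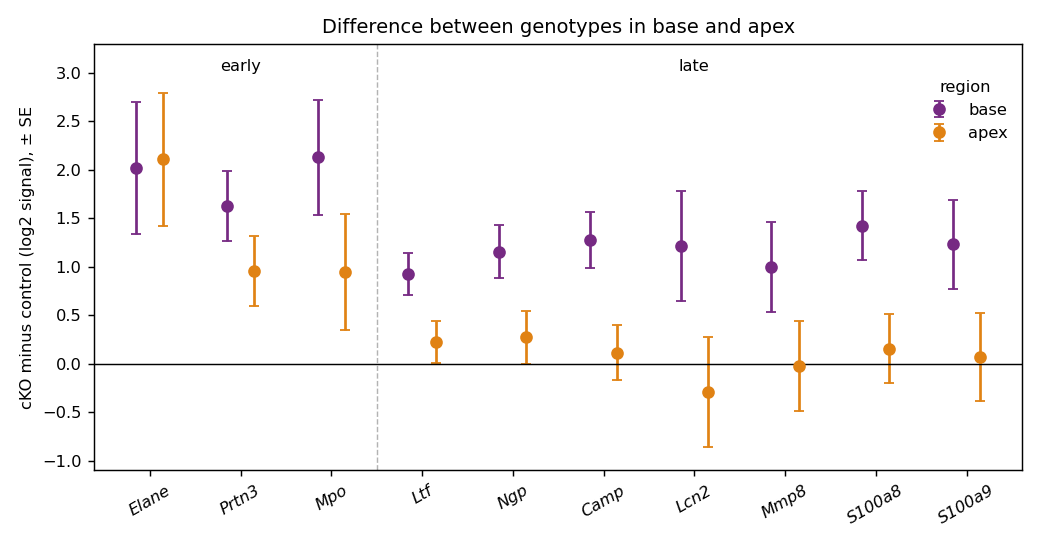
Difference of log2 signal, cKO minus control, for each granule gene in base and apex; points are the fitted differences and bars their SE (limma, n = 2 per group). The SE pools the spread of all 4 groups, so for a gene it is the same in base and apex. The points of Elane are taken against control values under the filter's signal. Basal differences run from 0.93 for Ltf to 2.13 for Mpo, while the apical ones of the 7 late genes lie between -0.29 and 0.27.

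Set within each presumed mouse, most late genes ran in opposite directions along the cochlea in the 2 genotypes. Ltf, Ngp, Lcn2, Mmp8, S100a8 and S100a9, 6 of the 7 late genes, had more signal in base than in apex in both cKO mice, and less in both control mice. That pattern was seen in 2.76% of all genes and in 0 of 3 early genes. The basal samples also enter the genotype comparison that chose the genes, so the count is not independent of that choice. Some control differences were small, such as -0.02 for Ngp in control mouse 2 and -0.11 for Mmp8 in control mouse 1. S100a8 gave base minus apex differences of 0.57 and 1.27 (log2) in the cKO mice, against -0.27 and -0.43 in the control mice. Without control base replicate 1, the control difference between regions was above 0 for Ngp (0.22), Lcn2 (0.34), S100a8 (0.0215) and S100a9 (0.0173), and below 0 for Ltf (-0.12) and Mmp8 (-0.15). Camp gave 1.31 and 0.98 in the cKO mice, against -0.05 and 0.01 in the control mice, and so missed the pattern by 1 control mouse.

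The early genes followed no such rule. Mpo was higher in base than in apex in cKO mice (1.60 and 1.03), and control mice went both ways (-0.95 and 1.22). Prtn3 gave 1.37 and 0.03 in cKO mice, against -0.03 and 0.10 in control mice. Elane gave 1.11 and -0.01 in cKO mice, against 1.49 and -0.21 in control mice, whose values all lay under the filter's signal. For Prtn3 and Elane, the values of mice of 1 genotype lay further apart than those genes' mean difference between regions in that genotype. The same held in control mice for Mpo, Ngp, Camp, Lcn2 and Mmp8, and in cKO mice for Lcn2, Mmp8 and S100a9. Lcn2, for instance, gave 0.39 and 1.86 in cKO mice, with a mean of 1.12. Such a spread was therefore not particular to the early genes.

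**Figure D3:**
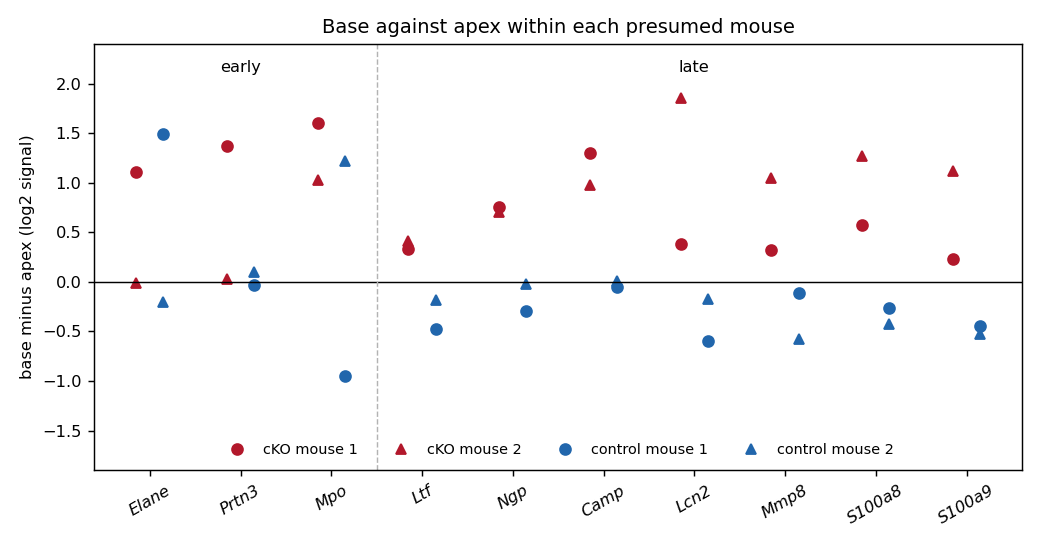
Base minus apex difference of log2 signal for each granule gene in the 4 presumed mice (cKO left, control right of each position; circles mouse 1, triangles mouse 2). For 6 of 7 late genes both cKO mice lie above 0 and both control mice below it, and the early genes have no such split.

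In groups, both basal samples lay above both apical ones for 9 of 10 genes in cKO mice, all but Elane, against 23.2% of all genes, and for 0 of 10 in control mice, against 17% of all genes. The same basal samples enter the genotype comparison that chose the genes, so these counts are not independent of it. By limma, 0 of 10 passed between base and apex in cKO, where 11 of all genes passed (0.0832%), and the smallest adjusted p of a granule gene was that of Camp (1.14 ± 0.29, adjusted p = 0.199). In control samples 0 passed, as of all genes (0%), and 0 of 10 granule genes and 994 of all genes were under an unadjusted p of 0.05. Over both genotypes 0 of 10 passed, where 157 of all genes passed (1.19%); 1 granule gene, Camp, was among 2274 genes under an unadjusted p of 0.05. The difference of the genotype effect between regions passed for 0 of 10, as for 0% of all genes, where 149 of all genes were under an unadjusted p of 0.05. Mpo passed in cKO without control base replicate 1 (adjusted p = 0.0365 by limma) or replicate 2 (0.0447), though its difference of 1.31 is made of other samples, and over both genotypes without control base replicate 1 (1.25, adjusted p = 0.00922).

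The balance of early against late transcripts was taken as the mean centred log2 signal of the 3 early genes minus that of the 7 late genes. It was 0.94 and 0.11 in cKO base, against -0.32 and -0.12 in control base, and 0.14 and 0.82 in cKO apex, against -0.81 and -0.76 in control apex. For these genes every cKO sample thus had a higher balance than every control sample. Without Elane, cKO apex replicate 1 (-0.05) lay under control base replicate 2 (0.04). Leaving out Elane was an alternative added after the data were seen. The genotype values also chose these genes, and the balance was not taken for other genes. Among granule genes outside this set, cKO minus control medians (log2) were 0.17 in base and 0.12 in apex for 9 early genes. For 19 late genes they were 0.52 and 0.18, so the early median was the lower one in both regions. The 9 early genes include Srgn, Ctsc and Fuca1, which macrophages also make, so their median does not describe neutrophil transcripts alone.

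Over the 8 samples, log2 signals of pairs of early genes correlated at r = 0.752 to 0.898, those of pairs of late genes at 0.658 to 0.959 and mixed pairs at 0.457 to 0.935. Medians were 0.887, 0.863 and 0.741. All pairs share the same 8 arrays and their group differences. The genes whose pattern was most like the mean of the 10 were Nacc1, a BTB-domain transcription regulator (r = 0.975), and Hp (0.964), which encodes haptoglobin, a haemoglobin-binding protein also held in neutrophil granules. Hp had basal signals of 106 and 104 in cKO, against 38.3 and 50.5 in control, and apical signals of 58.1 and 62.8 in cKO, against 28.0 and 57.5 in control. Its basal cKO samples lay above the other 6, as did those of the mean of the 10. Hp was picked for its likeness to that mean, so nothing is read from this. Wfdc21 (0.933), Fyb (0.932), an adaptor of blood cells, and Cytip, Uhrf1, Mfsd13a, Xpnpep3, Pxn and Btbd11 made up the 10 likest genes. Closest to the early genes were Ppard (0.967), Zmiz1, Fndc3b, Flot2 and Ncf4 (0.947), a subunit of the phagocyte oxidase.

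Further genes of neutrophil granules were counted in the same way. Of 19 other late granule genes tested, 18 were higher in cKO base and 14 in cKO apex, with medians of 0.52 and 0.18, where 49.8% and 50.1% of all genes were higher. None passed the adjusted threshold, where 0% of all genes passed. At an unadjusted p under 0.05 by limma, 6 in the base and 2 in the apex were higher. Among all 13221 genes tested, 217 and 146 were. The lists were chosen with earlier results of these data known, so nothing is read from these counts. The 4 with most signal gave basal differences of 0.45 (Tcn2, a cobalamin carrier), 0.65 (Anxa1, an annexin), 0.18 (Vamp2, a vesicle fusion protein) and -0.34 (B2m, the light chain of class I molecules). Of 9 other early granule genes, 7 were higher in cKO base and 8 in cKO apex, with medians of 0.17 and 0.12. The 4 with most signal gave basal differences of 0.32 (the lysozyme Lyz1), 0.20 (Srgn, the granule proteoglycan serglycin), 0.04 (Ctsc, the cathepsin that activates granule proteases) and -0.16 (Fuca1, a lysosomal fucosidase). Macrophages also make Srgn, Ctsc and Fuca1.

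The lists share genes: Mmp9 is also a mature neutrophil marker, and Hp, Chil3, Fcnb, Pglyrp1, Ctsg and Ms4a3 are also precursor markers. Ctsg had basal signals of 66.7 and 127 in cKO, against 9.64 and 38.2 in control, both under the filter's signal. Its apical signals were 40.3 and 78.6 in cKO, against 47.4 and 38.0 in control. Ms4a3 had basal signals of 117 and 53.7 in cKO, against 34.7 and 64.5 in control. Its apical signals were 42.8 and 99.5 in cKO, against 37.1 and 38.0 in control. Markers of neutrophil precursors, of which 8 were tested, were higher in cKO base for 7 and in cKO apex for 7, with medians of 0.51 and 0.35. Cebpa, a factor that starts granulocyte differentiation, had basal signals of 277 and 260.2 in cKO, against 188 and 193 in control, and apical signals of 110.5 and 132 in cKO, against 122 and 120 in control. It was apart in the base and overlapped in the apex. The other 3 of most signal gave basal and apical differences of 0.52 and 0.18 (the chitinase-like Chil3), 0.36 and 0.29 (the ficolin Fcnb) and 0.11 and 0.45 (Myb, a progenitor factor). Of 14 markers of mature neutrophils 4 were tested. Of these, 3 were higher in cKO base and 1 in cKO apex, with medians of 1.14 and -0.17. Mmp9, the gelatinase of tertiary granules, had basal signals of 1202 and 435.5 in cKO, against 109 and 245 in control (2.15 ± 0.83, log2, SE), and apical signals of 235 and 195 in cKO, against 95.4 and 536 in control. The formyl peptide receptor Fpr2 gave 1.35 ± 0.51 in the base, Clec4d 0.93 ± 0.63 and Trem1 -0.07 ± 0.41. Basal signals of Fpr2 were 73.9 and 202 in cKO, against 58.8 and 38.9 in control, with 1 cKO sample far above the other. In the apex Fpr2 was lower in both cKO samples (58.8 and 47.5, against 96.8 and 76.4). Apical Trem1 was higher in both (61.4 and 76.6, against 35.0 and 37.0), and apical Clec4d overlapped. The receptors Cxcr2, Il1r2 and Ltb4r1, which mark circulating neutrophils, lay under the filter's signal in every sample. Csf3r and Itgam, left untested by the filter, overlapped between genotypes in the base. Csf3r had basal signals of 8.38 and 37.2 in cKO, against 48.0 and 27.2 in control. Itgam had 15.5 and 19.6 in cKO base, against 32.3 and 11.7 in control base. Signals were also summed over the 10 mature neutrophil markers with a probe set, tested or not. The sums were 948 to 1513 in cKO base, against 394 to 430 in control base. In the apex they were 485 to 577 in cKO, against 384 to 844 in control. Mmp9 alone gave 1202 of the 1513 in cKO base replicate 1.

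Among genes that draw neutrophils into tissue or hold them in the marrow, of 7 tested, 5 were higher in cKO base (median 0.09) and 5 in cKO apex (0.04). A further 9, among them Cxcl5, Sele, Selp, Il6 and Tnf, lay under the filter's signal in every sample. Icam1, the endothelial ligand of neutrophil integrins, gave 0.14 in the base and 0.58 in the apex, and Cxcl1, a neutrophil chemokine, 0.16 and 0.18. Vcam1, an adhesion molecule, gave -0.01 and 0.15, and Cxcl12, which holds neutrophils in the marrow, 0.09 and 0.04. Factors that direct neutrophil maturation were higher in cKO base for 12 of 16 (median 0.12) and in cKO apex for 8 of 16 (-0.06). The 4 with most signal gave basal and apical differences of 0.03 and -0.15 (Cbfb), 0.04 and 0.21 (Cebpd), 0.01 and -0.25 (Kit) and 0.50 and 0.78 (Klf5). Inhibitors of granule proteases were higher for 6 of 11 in cKO base (0.04) and 8 of 11 in cKO apex (0.32), and receptors of granule proteins for 6 of 10 in each (0.12 and 0.02). No gene of these lists passed the adjusted threshold between genotypes, where 0% of all genes passed.

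Transcripts of other blood lineages were followed beside the granule genes. Of 8 erythroid precursor markers, 7 were higher in cKO base (median 0.67) and 0 in cKO apex (-0.29). Hemgn, an erythroid nuclear protein, had basal signals of 205 and 178 in cKO, against 33.3 and 80.5 in control, and apical signals of 98.7 and 141 in cKO, against 213 and 246 in control. Its genotypes were apart in both regions, in opposite directions. Alas2, the erythroid enzyme of haem synthesis, had basal signals of 1424 and 862 in cKO, against 454 and 1751 in control, and overlapped. Tspo2, an erythroid membrane protein, had 53.9 and 112 in cKO base, against 101 and 115 in control base, a difference of -0.47. Slc4a1, the anion exchanger of red cells, gave 1.05 in the base and -0.17 in the apex. Signals were summed over the 9 erythroid markers with a probe set. These sums were 1982 to 2471 in cKO base, against 893 to 2566 in control base, and 1278 to 1995 in cKO apex, against 1571 to 2295 in control apex. Cell cycle genes were higher in cKO base for 12 of 13 (0.50) and in cKO apex for 6 of 13 (-0.00).

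Of 4 mast cell, basophil and eosinophil markers, 3 were higher in cKO base (0.77) and 2 in cKO apex (0.03). Of 9 B cell precursor markers 8 were higher in cKO base (0.18) and 5 in cKO apex (0.03), and of 10 macrophage markers 6 (0.10) and 3 (-0.10). Of 4 platelet markers 2 were higher in cKO base (0.09) and 3 in cKO apex (0.20), and of 7 bone markers 5 (0.20) and 4 (0.04). Hbb-b2, the 1 haemoglobin gene tested, gave -0.51 in the base, with signals of 195 and 123 in cKO, against 119 and 410.3 in control, and 0.99 in the apex, with 232 and 122 in cKO, against 52.7 and 137 in control. Of 5 stria markers 4 were higher in cKO base (3.33), where control base replicate 1 lay far under its replicate, and 0 in cKO apex (-0.66). Of 5 hair cell markers 1 was higher in cKO base (-0.55) and 3 in cKO apex (0.19), and of 5 supporting cell markers 2 (-0.27) and 2 (-0.04). Whether the makeup of the dissected tissue bears on the granule genes was not tested.

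**Figure D4:**
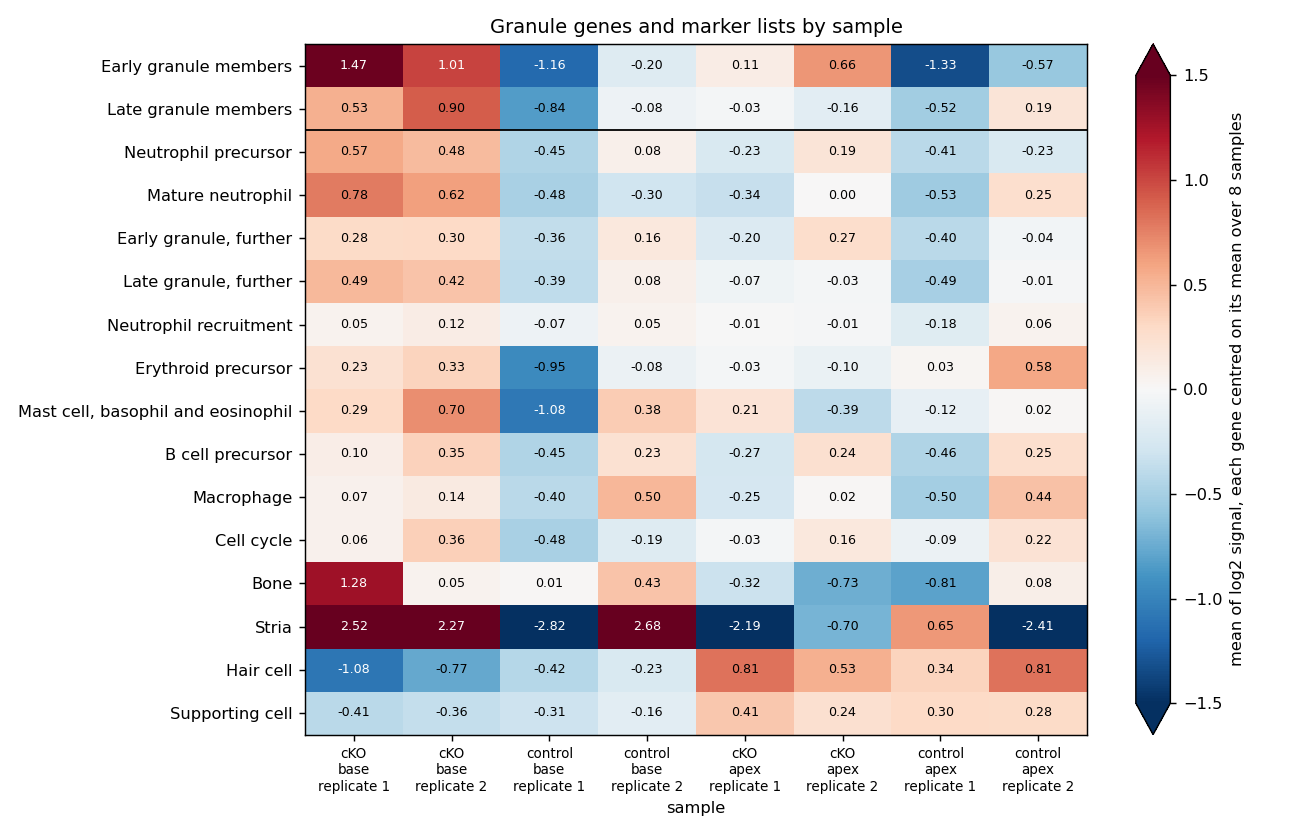
Mean centred log2 signal of the early and late granule genes (top 2 lines) and of marker lists (below) in each sample, cKO left of control within base and apex; red is above and blue below a gene's mean over the 8 samples. The late granule genes lie at 0.53 and 0.90 in cKO base, against -0.84 and -0.08 in control base. Control base replicate 1 is also the lowest sample for the neutrophil precursor, erythroid, mast cell, cell cycle and stria lists.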

How the data were processed

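Per the labels' protocols, mirVana total RNA (75 to 125 ng) was amplified and labelled in 2 cycles for Affymetrix arrays. The deposited table gives the intensity of each probe set as MAS5 signal, which the authors scaled to a trimmed mean of 500; the submitters' processing notes name MAS5 and affy 1.26. Signals were log2 transformed without a pseudocount. Each gene was read from its probe set of highest mean, and those whose mean log2 signal lay below the 40th percentile (5.27, a signal of 38.7) were left untested.

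For 13221 genes the 4 group means were fitted with limma 3.58.1 (R 4.3.3), with an intensity trend, two-sided tests and Benjamini-Hochberg adjustment. The fit was also run on simulated data with independent noise in each sample, so without any correlation within a mouse. No result here rests on that run. The genotype effect per mouse used the mean of apex and base. Per the labels a sample comes from a single mouse; that apex and base of equal number within a genotype share a mouse was presumed, not stated. Deviations from group means correlated between apex and base at r = 0.339 in controls and 0.0683 in cKO. The number of arrays limits precision.

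The granule genes and gene lists were chosen with earlier results of these data known. Named were all 10 granule genes, where genes of a list are named, its 4 tested genes of highest mean signal, the 10 genes (5 for early or late genes) whose pattern was most like, and Dicer1 and Dct. Genes outside that rule (Cxcr2, Il1r2, Ltb4r1 and the recruitment genes under the filter) are named for being under it. Csf3r and Itgam, mature neutrophil markers left untested, Xist, and genes that lists share are named too. Alternatives covered the filter, a pseudocount of 16, quantile normalization, 75th percentile centring, averaged probe sets, the variance trend, low values raised to the filter, the mouse as a block, and each sample left out.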

Additional observations from a re-analysis of the deposited data

Results flagged for a closer look

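The genotype difference (cKO minus control, log2) was larger in the base than in the apex by 0.70 for Ltf, 0.89 for Ngp, 1.503 for Lcn2, 1.02 for Mmp8, 1.27 for S100a8 and 1.16 for S100a9. These 6 late granule genes stood out because base exceeded apex in both presumed cKO mice and fell short of it in both presumed control mice. By limma across all genes the difference of the genotype effect had an adjusted p of 1.00 for each of them, and the basal samples it uses also entered the comparison that chose the genes. Under quantile normalization and under centring on the 75th percentile the pattern held for 5 granule genes, against 2.44% and 2.58% of all genes.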

How the results depend on the processing

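No granule gene passed the adjusted threshold in any of the 7 comparisons under another filter, pseudocount, scaling, probe set rule or variance model. The presumed mouse as a replicate block, fixed or random, changed no call of a granule gene; over all genes, base against apex gave 0 (fixed) or 81 (random) calls in cKO, against 11 without the block, and 255 or 527 over both genotypes, against 157. With a sample left out, 0 to 1 granule genes passed for cKO against control in the base, base against apex in cKO and over both genotypes; the 1 was Mpo, and a basal control was the sample left out. That fit assumes that the lone control varies like the other groups. All genes called ran from 0 to 37 for cKO against control in the base, 0 to 316 for base against apex in cKO, 0 to 551 in control and 0 to 1518 over both genotypes; the highest came without a basal control. In cKO, base against apex called 0 genes with no filter, quantile normalization, centring or no trend and 6 with probe sets averaged; over both genotypes no trend gave 70 and averaging 98. Without the trend 1 gene, no granule gene, passed between genotypes in the base and 1 in the apex, and 0 to 9 passed per mouse with a mouse left out.

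Base minus apex in control changed sign for Camp under quantile normalization (0.0525) and centring (0.0141). With a sample left out it ran from -0.40 to 1.69 for Elane, -0.17 to 0.23 for Prtn3, -0.92 to 1.18 for Mpo, -0.54 to 0.22 for Ngp, -0.31 to 0.27 for Camp, -1.097 to 0.34 for Lcn2, -0.76 to 0.0856 for Mmp8, -0.79 to 0.10 for S100a8 and -1.02 to 0.0584 for S100a9. Over both genotypes it ran from -0.0824 to 0.13 for Ltf, -0.0866 to 0.43 for Mmp8 and -0.17 to 0.37 for S100a9. Cause was not tested. Under both scalings 5 granule genes, not 4, were apart in the apex (15.1% and 19.2% of all genes).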
